A study of Mus musculus with 6 samples.

Results

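Cluster 1 of the *NG2-tdT+* cells holds cells that the published annotation names canonical pericytes. They were taken as the cells with cluster number 1 in the deposited annotation of the NG2 line. There are 1713 of them among 10455 sorted cells of this line and 17033 cells in the series. By library, 1086 came from naïve cortex, 318 from cortex after physical injury and 309 from cortex after ischemic injury.

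These cells came from the cerebral cortex of NG2-Cre-ERT2/Ai14-flx mice aged 3 to 4 months, in which tamoxifen activates Cre under the NG2 (Cspg4) promoter and Cre switches on the red reporter tdTomato (tdT). Naïve mice had no injury and, per the published study, also received tamoxifen before their cells were collected. The physical injury group received saline into the cortex, and the ischemic injury group received ET-1/L-NAME, a vasoconstrictor peptide with an inhibitor of nitric oxide synthesis. In both injured groups tamoxifen was given 7 days before the injection and the cells were collected 3 days after it. Live cells (tdT+/DAPI-) were sorted from pooled animals and each group gave 1 droplet library of 3' ends. The NG2 promoter is active in every cell type that makes NG2, and cells labelled before an injury keep tdT. The published annotation of the sorted cells also names smooth muscle, oligodendrocyte-lineage and other clusters. With 1 library per group there is no replicate and no test, and the intervals given below cover counting error only. Cluster 1 was compared, within each library, with cluster 0 (activated pericytes in the published annotation, 2164 cells) and cluster 2 (canonical pericytes, 1557 cells). The clusters were formed on expression, so a difference between clusters is a description and no independent evidence.

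Pericytes sit on the outside of brain capillaries, embedded in the basement membrane that they share with endothelial cells. They help to keep the blood-brain barrier closed, depend on endothelial PDGF-B acting on their receptor Pdgfrb, and set capillary tone through potassium and calcium channels. After brain injury some detach from the vessel, and they can take part in scar formation.

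Cluster 1 made up 33.5% (95% exact binomial interval 31.9 to 35.1) of the cells of clusters 0, 1 and 2 in the naïve library, 28.8% (26.1 to 31.5) after physical injury and 28.5% (25.8 to 31.3) after ischemic injury. Of all sorted cells it made up 25.2%, 12.4% and 8.62%, shares that also move with how many other tdT+ cells the sort recovered. In the rest of the text, values given together stand for the naïve, physical injury and ischemic injury libraries, in this order. The cells of cluster 1 held 3344251, 1207283 and 936654 unique transcripts (UMIs), with medians of 3054.5, 3843.5 and 2984 UMIs per cell. They were shallower than the cells of cluster 0, with medians of 4122.5, 4944 and 4547, and of cluster 2, with 4376, 5145 and 4755. Cells with fewer than 1000 UMIs numbered 30, 20 and 55 in cluster 1, against at most 3 in a library of cluster 0 and at most 2 in cluster 2, so the ischemic library held the largest share of shallow cells. No barcode was shared between libraries within cluster 1. In the separate clustering of the naïve cells, whose numbers were set on their own, the naïve cells of cluster 1 were divided. Of them, 54.1% were in its cluster 1, 25.8% in its cluster 0 and 9.39% in its cluster 7. That cluster 7 also took 6.02% of the naïve cells of cluster 0 and 7.18% of those of cluster 2. Levels below are CPM, the UMIs of a gene for every 1000000 UMIs that a cluster had in a library. They count 3' ends, so no correction for gene length was made.

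The name canonical pericytes was checked against 14 pericyte markers. All 14 were detected in cluster 1, with Vtn the most abundant, and their summed level was 44824, 44875 and 45298.5 CPM, against 40167, 40286.5 and 40211 in cluster 0 and 40134, 37683 and 39678 in cluster 2. Rgs5, a brake on G protein signalling, stood at 7208, 7439.9 and 8806 CPM, and Kcnj8 and Abcc9, the subunits of the vascular ATP-sensitive potassium channel, at 1643, 1546 and 1484 CPM and 1284, 1316 and 1331 CPM. Pdgfrb was measured at 1556, 1544 and 1486 CPM, Notch3 at 799, 812 and 778 CPM and the driver transcript Cspg4 at 769, 675 and 744 CPM. These levels changed little between libraries, and none of the 14 genes differed by 2-fold between clusters or conditions.

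In cluster 1 the markers of each other cell type summed to less than the pericyte markers. The 10 smooth muscle markers summed to 2699, 2609 and 2973 CPM, of which the myosin light chain Myl9 gave 1998, 1979 and 2365 CPM. Myl9 alone was above Pdgfrb in each library. Acta2, the smooth muscle actin, was at 26.6, 15.7 and 24.6 CPM and Actg2 at 0. The 12 endothelial markers summed to 1052, 1117 and 1118 CPM, led by the junction protein Esam at 479, 490.4 and 516 CPM, which mural cells also make, while the tight junction gene Cldn5 was at 0.598, 10.8 and 3.20 CPM and Cdh5 was at 0. The 10 fibroblast markers summed to 608, 596 and 611 CPM, led by Igf2, with Col1a1 and Slc13a4 at 0. The 10 astrocyte markers summed to 53.2, 61.3 and 67.3 CPM, led by Slc1a3, with Aqp4, Gfap, Gja1 and Aldh1l1 at 0. The 5 red blood cell transcripts summed to 0.598, 4.14 and 6.41 CPM. Markers of the oligodendrocyte lineage, radial glial precursors, microglia and neurons differed between libraries and are described with the injuries.

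Vtn encodes vitronectin, an adhesive plasma and matrix protein bound by integrins, and was the most abundant of the 6 genes given as markers of the cluster. It lies at chr11:78499091-78502324 on the plus strand (mm10). Its level in cluster 1 was 22685, 22918 and 21521 CPM, against 18700.0, 18706 and 17320.3 CPM in cluster 0 and 16739.7, 15991 and 16110.0 CPM in cluster 2. Cluster 1 was thus the highest of the 3 clusters in each library, and of all clusters with at least 20 cells, but the gap was small, with log2 ratios of 0.28, 0.29 and 0.31 to cluster 0 and 0.44, 0.52 and 0.42 to cluster 2. Mesenchymal-like cells (cluster 8) came next with 12251, 14978 and 12642 CPM, while smooth muscle cells (cluster 3) were at 1709.9, 1187 and 1402 CPM and oligodendrocytes (cluster 4) at 196, 84.2 and 67.8 CPM.

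**Figure D1:**
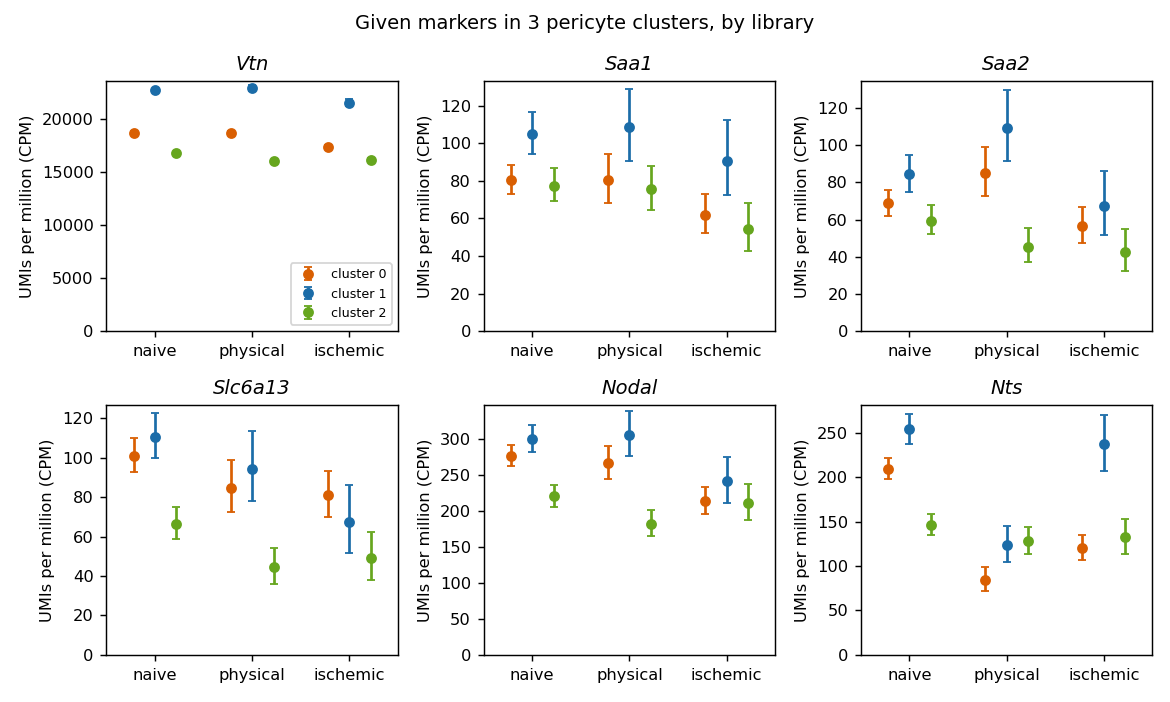
Levels of the 6 given markers (CPM, with 95% exact Poisson intervals) in clusters 0, 1 and 2 of the naïve, physical injury and ischemic injury libraries. Vtn was highest in cluster 1 in each library, whereas Nts in cluster 1 was at 123 CPM after physical injury, just below cluster 2.

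Saa1 and Saa2 encode serum amyloid A proteins, secreted in the acute phase response. Saa1, at chr7:46740497-46742980 on the minus strand, was at 105, 109 and 90.7 CPM in cluster 1, 80.3, 80.5 and 61.9 CPM in cluster 0 and 77.4, 75.4 and 54.3 CPM in cluster 2. Saa2, its neighbour at chr7:46751790-46754313 on the plus strand, was at 84.3, 109 and 67.3 CPM, 68.8, 85.2 and 56.4 CPM and 59.5, 45.4 and 42.4 CPM in these clusters. Both were highest in cluster 1 in each library, with log2 ratios to cluster 0 of 0.38, 0.43 and 0.54 for Saa1 and 0.29, 0.36 and 0.25 for Saa2. The genes are close copies, so reads can be shared between them and the split between their counts is uncertain. Their promoters are shown to describe their likeness around the transcript start, which does not measure that of the transcript ends counted here. Each window covers 250 bases before and 50 after the transcript start in the RefSeq annotation of GRCm38.p6, written 5′ to 3′ on the strand of the gene, with matches to TTNNGCAA, a core of C/EBP binding sites searched on both strands, in capitals. The Saa1 window is chr7:46742931-46743230 (minus strand) and the Saa2 window chr7:46751583-46751882 (plus strand).
Saa1: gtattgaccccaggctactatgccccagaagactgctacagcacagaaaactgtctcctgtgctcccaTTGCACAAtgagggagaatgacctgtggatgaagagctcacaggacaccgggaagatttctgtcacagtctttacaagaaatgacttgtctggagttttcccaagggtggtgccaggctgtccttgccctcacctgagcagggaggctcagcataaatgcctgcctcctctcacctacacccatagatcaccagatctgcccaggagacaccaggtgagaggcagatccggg
Saa2: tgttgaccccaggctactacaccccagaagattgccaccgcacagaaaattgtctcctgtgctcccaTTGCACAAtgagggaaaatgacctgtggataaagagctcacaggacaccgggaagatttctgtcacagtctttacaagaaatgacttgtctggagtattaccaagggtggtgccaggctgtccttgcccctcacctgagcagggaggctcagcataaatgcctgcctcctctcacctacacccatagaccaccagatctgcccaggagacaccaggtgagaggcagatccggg
The windows are identical at 287 of 301 aligned positions (95.3%), with 2 gaps. Each holds 1 match, and 10.8% of 27025 promoters of the same length hold at least 1. A match is a description and shows no binding. Of the other acute phase genes, Saa3 was at 0.897, 0 and 0 CPM, Il6 at 0, the receptor subunit Osmr at 75.1, 91.9 and 75.8 CPM and the signal transducer Stat3 at 74.8, 63 and 83.3 CPM.

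Slc6a13, which takes up GABA and taurine into the cell, lies at chr6:121300227-121337733 on the plus strand. It was at 111, 94.4 and 67.3 CPM in cluster 1, 101, 84.6 and 81 CPM in cluster 0 and 66.6, 44.5 and 49.1 CPM in cluster 2. Cluster 1 was above cluster 2 in each library, with log2 ratios of 0.72, 1.07 and 0.45, but below cluster 0 after ischemic injury, where the log2 ratio was -0.26. In cluster 8 it was at 47.3, 38.2 and 20.3 CPM.

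Nodal is a ligand of the TGF-beta family that signals through activin receptors with Tdgf1 (Cripto) as co-receptor, and is restrained by Lefty proteins. The gene, at chr10:61417972-61425338 on the plus strand, was at 300.2, 306 and 241 CPM in cluster 1, 277, 267 and 215 CPM in cluster 0 and 221, 183 and 211 CPM in cluster 2. Nodal was largely a transcript of these 3 clusters, with 85.2, 69.8 and 53.9 CPM in cluster 8, 10.5, 4.12 and 5.62 CPM in smooth muscle cells and 1.53, 0.142 and 1.16 CPM in oligodendrocytes. Among the other ligands tested in cluster 1, Bmp5 was at 128, 149 and 121 CPM, Tgfb1 at 83.1, 109 and 112 CPM and Bmp4 at 71.5, 80.3 and 64.1 CPM. The type II activin receptors Acvr2a and Acvr2b were at 26.6, 29.8 and 29.9 CPM and 23, 22.4 and 26.7 CPM, the type I receptor Acvr1b at 3.89, 3.31 and 2.14 CPM, and the co-receptor Tdgf1 at 11.7, 9.11 and 9.61 CPM. Lefty1, a Nodal inhibitor, was at 8.37, 8.28 and 6.41 CPM, and Smad2, which carries the signal to the nucleus, at 46.6, 46.4 and 43.8 CPM.

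Nts encodes neurotensin, a peptide that widens vessels and acts on neurons, and lies at chr10:102481756-102490486 on the minus strand. It was at 254, 123 and 237 CPM in cluster 1, 209, 84.6 and 120.0 CPM in cluster 0 and 146, 128 and 132 CPM in cluster 2. Among these 3 clusters, cluster 1 had the highest CPM in the naïve and ischemic libraries. After physical injury cluster 2 was slightly above it (log2 ratio -0.05). In the ischemic library, 4 cells of cluster 1 held 70 of its 222 Nts UMIs. With each cell there drawn down to 1000 UMIs, Nts was found in 9.45% of cells in cluster 1, 8.57% in cluster 0 and 9.52% in cluster 2. Cluster 8 held 166, 225 and 188 CPM, which was above cluster 1 after physical injury. The neurotensin receptor Ntsr2 was at 0, and the sorting receptor Sort1, which also binds neurotensin, at 153, 162 and 144 CPM. Of the 16 neuropeptide genes listed, 14 were in the table and 3 reached 20 CPM, Nts among them.

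Set side by side, all 6 markers had a positive median log2 ratio over the 3 libraries, with a median of 0.30 to cluster 0 (0.02 over 6803 genes tested) and 0.54 to cluster 2 (-0.02 over 6960 genes). None reached a 2-fold difference in all 3 libraries. Some small ratios to cluster 0 turned direction with another choice of cells. With cells thinned to 1000 UMIs, the ratio in the physical injury library was -0.13 for Saa1, -0.23 for Slc6a13 and -0.03 for Nodal, and that in the ischemic library -0.06 for Saa2. Without cells that held at least 2 UMIs of the defining genes of another cell type (mixed cells), the ratio in the ischemic library was -0.003 for Saa1 and -0.02 for Nodal, and that of Slc6a13 to cluster 2 was -0.05. The ratios of Vtn to both clusters kept their direction in every alternative run. The genes were given as markers of this cluster, so their direction here is no finding.

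Within cluster 1, Vtn was spread over nearly all cells and Nts was concentrated in few. In the 1056, 298 and 254 cells of at least 1000 UMIs, each thinned to 1000, Vtn was found in 100, 100 and 99.2% of cells (without thinning 100, 99.1 and 98.7%), against 3.03, 2.74 and 3.15% (42.7, 22.1 and 23% unthinned) in oligodendrocytes, which should lack it and had a median of 13252, 23779 and 29600.5 UMIs per cell before thinning. Nodal was found in 26.9, 24.8 and 19.7% of thinned cells (50, 52.8 and 40.1% unthinned) and in 0% of thinned oligodendrocytes, Slc6a13 in 9.85, 8.05 and 7.87% (24.1, 24.2 and 14.9%) against 0, 0 and 0.35%, and Nts in 13.4, 7.38 and 9.45% (22.3, 14.5 and 18.4%) against 0%. Saa1 was found in 9.56, 8.05 and 8.27% (20.9, 26.1 and 17.2%) and Saa2 in 8.33, 9.73 and 5.51% (17.2, 25.8 and 13.3%), both against 0%. The background was higher in endothelial cells (cluster 5, median 5720, 7522.5 and 8622 UMIs), where thinned shares were 28, 22.7 and 20.5% for Vtn, 3.00, 0.499 and 1.34% for Nodal, 0, 0.249 and 0.446% for Slc6a13, 1.00, 0.499 and 0.223% for Nts, 0, 0.249 and 0.223% for Saa1 and 0, 0 and 0.223% for Saa2. In clusters 0 and 2, Vtn was in 100% of thinned cells in each library. Nodal was in 22, 24.7 and 18.7% of those of cluster 0 and 18.1, 14 and 19.4% of cluster 2. Slc6a13 was in 9.79, 9.19 and 8.57% and 5.49, 4.67 and 4.4%, so cluster 0 was above cluster 1 after both injuries. Saa1 in cluster 0 (8.14%) was above cluster 1 after physical injury, and Nts in cluster 2 (9.34 and 9.52%) after both. In the remaining comparisons of these 5 genes cluster 1 was higher. The 5% of cells of cluster 1 with the most Nts held 58.2%, 73.8% and 65.8% of its UMIs, with up to 32 in a cell. The top 5% for Vtn held 11.2%, 10.6% and 13.9%. Among thinned cells, 47.2%, 55.4% and 60.2% had none of the 5 less abundant markers, against 54.7%, 51.4% and 61.6% in cluster 0 and 61.8%, 67.1% and 62.6% in cluster 2. At least 2 were found in 12.8%, 10.7% and 10.2%, against 10.9%, 7.61% and 7.77% in cluster 0 and 6.29%, 5.65% and 5.13% in cluster 2. Unthinned, the deeper cells of cluster 0 had at least 2 more often (48.5%, 52.0% and 42.1%, against 40.6%, 42.1% and 29.8% in cluster 1).

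After injury, Vtn stayed level in cluster 1, with log2 ratios to the naïve library of 0.01 after physical and -0.08 after ischemic injury. Both comparisons share the naïve library. Nts was lower after physical injury, with a log2 ratio of -1.03 (95% counting interval -1.30 to -0.79), against -1.30 in cluster 0 and -0.19 in cluster 2. Its CPM was near the naïve level after ischemic injury (log2 ratio -0.10, and 0.16 without mixed cells). The share of thinned cells with Nts was 13.4% in the naïve library, 7.38% after physical and 9.45% after ischemic injury. Few cells held most Nts UMIs, and the counting interval does not cover this. Slc6a13 had a log2 ratio of -0.71 (95% counting interval -1.13 to -0.33) after ischemic injury, against -0.32 in cluster 0 and -0.43 in cluster 2. Nodal had -0.31 (95% counting interval -0.53 to -0.11), against -0.37 and -0.06, so both were also below their naïve level in clusters 0 and 2. In the ischemic library the shallowest of 4 depth classes of nearly equal size (77 cells, 451 to 1333 UMIs) had Slc6a13 at 15.9 CPM, a single UMI, and Vtn at 17278 CPM, and the deepest (78 cells, 4162 to 9060 UMIs) had 57.9 and 21282 CPM, while the classes between them had Slc6a13 at 125 and 54.4 CPM. What depth adds to the lower levels was not tested.

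The clearest difference from cluster 0 was a low level of immediate early genes, transcripts that most cells raise within minutes of a stimulus, tissue dissociation included. Of 6803 genes with at least 20 CPM in the higher cluster of each library, 31 (0.456% of those tested) were at least 2-fold lower in cluster 1 in all 3 libraries, and 12 of them are among the 13 immediate early genes tested, whose median log2 ratio was -2.26. Fos, a subunit of the AP-1 factor, was at 1897, 625 and 1357 CPM in cluster 1 against 9475, 4338 and 9849.8 CPM in cluster 0, and Jun, its partner, at 2977, 907 and 1112 CPM against 11069, 4676 and 8068 CPM. Egr1, a zinc finger factor, was at 495, 157 and 383 CPM against 3527, 1358 and 4291 CPM, a log2 ratio of -2.83, -3.10 and -3.48. Cluster 1 was below cluster 0 in each library for Fos, Jun and Egr1. The log2 ratios to cluster 0 of Atf3 (-3.69, -3.16 and -2.74), a stress-induced factor, Fosb (-2.73, -3.33 and -3.66) and Klf4 (-2.89, -3.34 and -3.27), a regulator of mural cell identity, were also below 0 in each library.

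Genes of the heat shock and stress response shared this pattern in part. Of 19 tested, 4 were at least 2-fold lower in cluster 1 in all 3 libraries, the inducible chaperones Hspa1a and Hspa1b and their partners Hsph1 and Dnajb1. Hspa1a was at 1222, 906 and 419 CPM against 5392, 3702 and 3032 CPM in cluster 0, and Hspa1b at 352, 144 and 99.3 CPM against 1936, 898 and 917 CPM. These genes are near-identical copies, so the split of reads between them is uncertain. Also lower were Socs3, a feedback inhibitor of cytokine signalling (64, 23.2 and 40.6 against 266, 97.5 and 321 CPM) and the mRNA-destabilising protein Zfp36 (169.5, 107 and 123 against 656, 451 and 789 CPM). The other members include Klf2, Nfkbiz and Cxcl1.

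Levels of these genes in cluster 2 were nearer to those of cluster 1. Fos in cluster 2 was at 1821, 969.9 and 1972 CPM and Jun at 3142, 1306 and 1766 CPM, and 0 of 13 immediate early genes and 0 of 19 heat shock genes differed 2-fold between clusters 1 and 2 in all 3 libraries (median log2 ratios -0.23 and 0.15), where over all genes tested 0.302% were lower and 0 were higher. Counted per cell at 1000 UMIs, cluster 1 held a median of 6.5, 3 and 4 UMIs of immediate early genes, against 36, 15 and 32 in cluster 0 and 6, 3 and 4 in cluster 2. Only 1.70%, 2.35% and 0.394% of the cells of cluster 1 reached the median of cluster 0. Jun itself was found in 64.5, 41.9 and 44.5% of thinned cells of cluster 1 (78.5, 65.1 and 63.1% unthinned) and 99.7, 93.7 and 97.8% of cluster 0. It was found in 54.5, 39 and 37.8% of thinned oligodendrocytes, and no cell type of the sort can be taken to lack it.

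**Figure D2:**
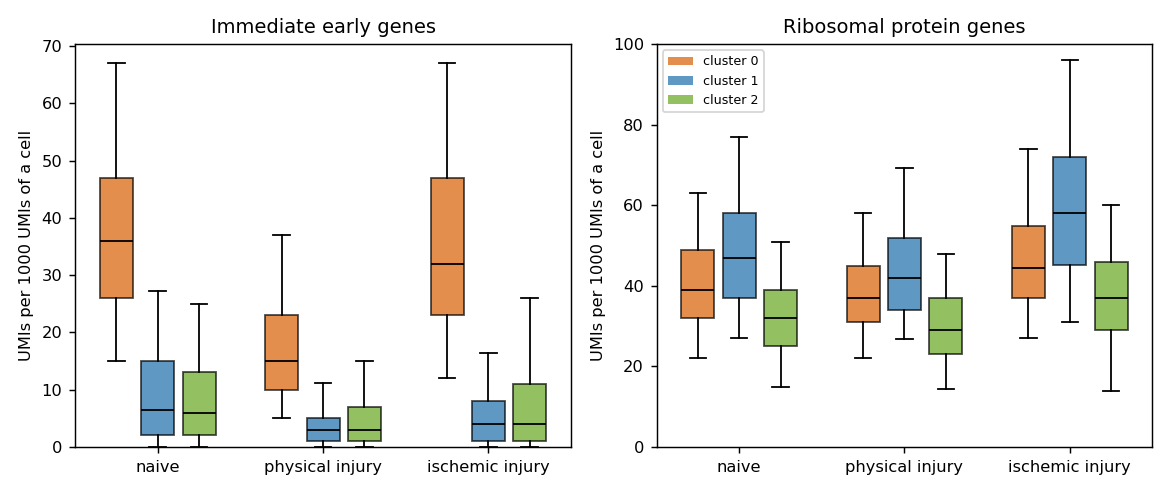
UMIs of immediate early genes and of ribosomal protein genes per cell thinned to 1000 UMIs, in clusters 0, 1 and 2 of each library. Lines inside boxes are medians, boxes span the 25th to 75th percentile and whiskers the 5th to 95th. Medians of immediate early genes in cluster 1 (6.5, 3 and 4) lie far under those of cluster 0 (36, 15 and 32), and medians of ribosomal protein genes in cluster 1 (47, 42 and 58) lie over those of the other clusters.

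Promoters of Fos and Hspa1b are shown because these genes stand for the groups that were lower than in cluster 0. The windows are built as above. Capitals in Fos mark TGACG, the core that CREB/ATF factors bind, and capitals in Hspa1b mark GAANNTTC, the core of the heat shock element. Fos is at chr12:85473640-85473939 (plus strand) and Hspa1b at chr17:34959189-34959488 (minus strand).
Fos: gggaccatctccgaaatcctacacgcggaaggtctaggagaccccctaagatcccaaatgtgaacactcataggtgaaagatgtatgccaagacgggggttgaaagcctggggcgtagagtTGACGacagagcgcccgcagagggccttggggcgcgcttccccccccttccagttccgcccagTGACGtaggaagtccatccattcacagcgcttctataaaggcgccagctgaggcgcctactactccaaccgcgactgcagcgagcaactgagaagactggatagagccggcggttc
Hspa1b: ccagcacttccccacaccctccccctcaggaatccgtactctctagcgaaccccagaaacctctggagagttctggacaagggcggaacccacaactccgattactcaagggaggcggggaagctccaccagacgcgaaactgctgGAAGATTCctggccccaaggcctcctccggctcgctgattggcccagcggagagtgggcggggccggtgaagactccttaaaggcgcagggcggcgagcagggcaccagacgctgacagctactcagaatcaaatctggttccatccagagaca
TGACG was found on either strand in 16 of the 24 promoters available for the 31 genes (66.7%) and in 21% of all 27025 promoters. GAANNTTC was found in 5 of the 24 (20.8%) and in 7.95% of all promoters. Both are counts of letters and show no binding.

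Few genes were higher in cluster 1 than in cluster 0. Ndufa4, a subunit of cytochrome c oxidase that was named after its values were seen, was the only gene past 2-fold in all 3 libraries (1 of 6803, 0.0147%), at 23.6, 29.8 and 40.6 CPM against 11.3, 14.4 and 18.2 CPM. In cluster 0 it was under 20 CPM in each library, so it was tested only through cluster 1, where it is high. It was no longer counted with edgeR's TMM factors, a pseudocount of 5 CPM, a minimum of 50 CPM, cells of at most 5% mitochondrial UMIs, cells of at least 1500 UMIs, or without mixed cells. Below that size, Crip1, a small LIM domain protein, was at 754, 595 and 941 CPM against 434, 416 and 653 CPM, and Apoe, the main lipid carrier of the brain, at 231, 189.7 and 180.4 CPM against 148, 129 and 122 CPM. The proteasome subunits Psmb3 (242, 256 and 284 against 171, 166 and 192 CPM) and Psmb10 (50.2, 57.2 and 57.7 against 31.1, 34.9 and 34.8 CPM) were also higher in each library, as was the long noncoding RNA Carmn of mural cells (153, 429.9 and 266 against 94.9, 204 and 105 CPM), which was below cluster 2 (213, 450.2 and 316 CPM).

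Against cluster 2, cluster 1 was lower in very long genes and higher in short, abundant ones. Of 6960 genes tested, 21 (0.302%) were at least 2-fold lower in cluster 1 in all 3 libraries and 0 (0%) were higher. Dgkb, a diacylglycerol kinase gene of 817 kb, was at 84, 121 and 61.9 CPM against 327, 425 and 301 CPM, log2 ratios of -1.95, -1.80 and -2.26. The metabotropic glutamate receptor gene Grm7 was at 465, 624 and 427 CPM against 1214, 1406 and 1249 CPM. Cacna1c, the pore of the L-type calcium channel, was at 246, 402 and 238 CPM against 523, 869 and 655 CPM, and its beta subunit gene Cacnb2 at 109, 162 and 71.5 CPM against 284, 357 and 247 CPM. Gucy1a2, a subunit of the nitric oxide receptor, was at 322, 488 and 287 CPM against 734, 997 and 779.8 CPM. Cluster 1 was the lower of the pair in each library for all of these, and it was also under cluster 0, with Grm7 there at 843, 949 and 712 CPM.

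These genes share a large genomic span, the distance between the first and last annotated base. The 21 genes have a median span of 384.8 kb and 17 of them (81.0%) exceed 100 kb, against 16.0% of all genes tested. Over all genes tested, the median log2 ratio of cluster 1 to cluster 2 went from 0.44 in the shortest of 10 span classes to -0.60 in the longest, and from 0.27 to -0.29 against cluster 0. Within libraries the ratios to cluster 2 went from 0.41 to -0.59, from 0.44 to -0.53 and from 0.44 to -0.67. Genes over 100 kb gave 13.2%, 15.9% and 13.0% of the UMIs of cluster 1, against 19.1%, 21.7% and 19.4% in cluster 2. The 31 genes lower than in cluster 0 were short, with a median span of 4.46 kb and none over 100 kb.

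**Figure D3:**
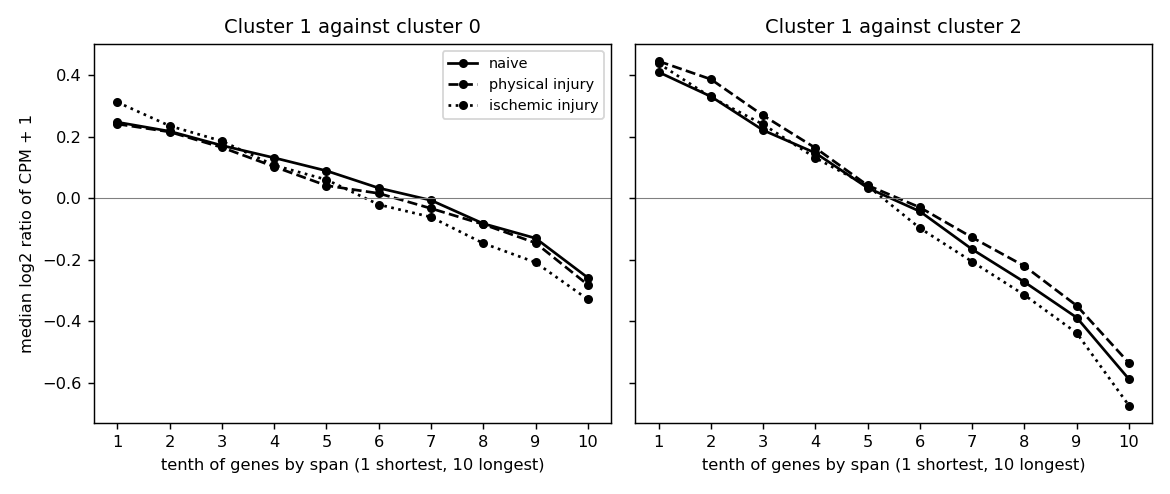
Median log2 ratio of cluster 1 to clusters 0 and 2 by class of gene span (10 classes from the shortest to the longest genes, with limits set on the genes tested against cluster 2), for each library. The lines fall from short to long genes in each library, from 0.44 to -0.60 against cluster 2 over the libraries and from 0.27 to -0.29 against cluster 0.

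In the same contrast, 76 of 77 ribosomal protein genes had a positive median ratio to cluster 2 (median log2 ratio 0.59; 75 of 78 and 0.31 to cluster 0). Nuclear genes of oxidative phosphorylation were alike, with 74 of 75 positive and a median of 0.54 (75 of 75 and 0.40 to cluster 0). These lists and the nuclear-retained RNAs were added after the values were seen. Rps27a, a ribosomal protein made as a ubiquitin fusion, was at 936, 811 and 1116 CPM against 580.2, 509 and 581 CPM in cluster 2, and Fau, a ribosomal protein made as a fusion with a ubiquitin-like protein, at 1239.7, 1159 and 1453 CPM against 790.1, 739 and 932 CPM. Ftl1, the light chain of the iron store ferritin, was at 1125, 1087 and 1093 CPM against 724, 601 and 706 CPM, and Ndufa5, a subunit of complex I, at 376, 347 and 426 CPM against 240.1, 212 and 265 CPM. Each was higher in cluster 1 in all 3 libraries and each stayed under 2-fold. Of 6 nuclear-retained RNAs tested, 0 had a positive ratio to cluster 2, and Malat1, the most abundant, gave 4.47%, 5.10% and 3.85% of UMIs in cluster 1 against 6.48%, 7.98% and 6.19% in cluster 2. These shares also differed with depth within cluster 1. Malat1 was at 28556, 34094 and 33542 CPM in the shallowest of 4 depth classes of the naïve, physical and ischemic libraries and at 51656, 59735 and 40910 CPM in the deepest. Ribosomal transcripts were lower in the deepest class, at 44262, 41021 and 56148 CPM against 56053, 54150 and 78481 CPM. Genes over 100 kb went from 113851 to 140071 CPM in the naïve and from 140713 to 163870 CPM in the physical injury library, and were nearly flat in the ischemic library (126797 and 131556 CPM). The part of depth in these differences was not tested.

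Spp1 (osteopontin, a secreted matrix protein) led the named genes higher than in cluster 2 (at 50 CPM or more in each library), at 408, 211 and 261 CPM against 189, 93.1 and 145 CPM. It came from few cells, as the top 5% of cells held 68.4%, 76.9% and 84.0% of its UMIs.

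**Figure D4:**
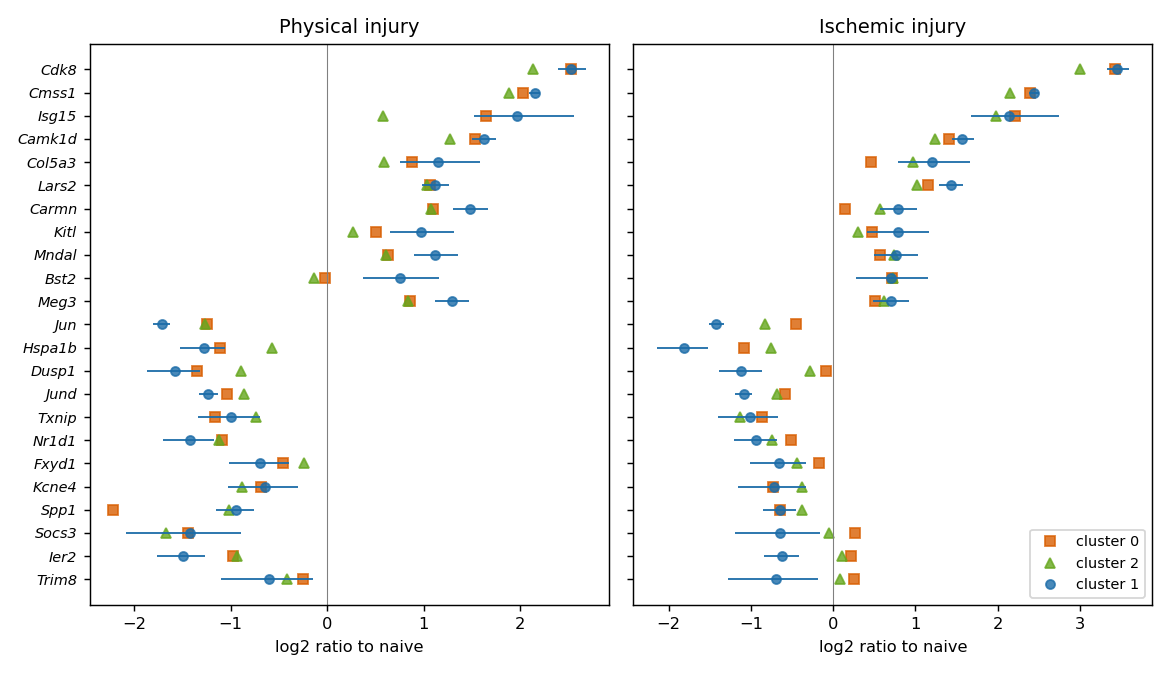
Log2 ratio to the naïve library, after physical and after ischemic injury, of 23 genes named for a change in the same direction after both injuries, in clusters 0, 1 and 2. Bars are the 95% counting interval of cluster 1. Cdk8 and Cmss1 lie over 2 in cluster 1 after both injuries, and Jun lies under -1.

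After physical injury, 42 genes (0.573% of 7327 tested) were at least 2-fold higher in cluster 1 than in the naïve library and 45 (0.614%) were lower. After ischemic injury, 74 of 7305 (1.01%) were higher and 66 (0.903%) lower. Among genes that reached 20 CPM in both libraries, 21 (0.32% of 6572) were higher and 20 (0.304%) lower after physical injury, and 19 (0.291% of 6539) and 16 (0.245%) after ischemic injury. In clusters 0 and 2 the counts were 21 higher and 27 lower, and 17 and 24, after physical injury, and 44 and 10, and 44 and 21, after ischemic injury. Cluster 1 is the smallest of these sums after injury, and a smaller sum passes 2-fold more often through counting error.

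Of the genes higher after both injuries, the highest ratios belonged to Cdk8, a kinase of the Mediator complex, and Cmss1. Cdk8 was at 182, 1056 and 2001 CPM, with log2 ratios of 2.53 and 3.45, and Cmss1 at 1062, 4719 and 5779 CPM, with 2.15 and 2.44. They moved in most clusters, since Cdk8 was past 2-fold the same way in 6 and 7 of 8 other clusters and Cmss1 in 7 and 7, so the libraries and the injuries cannot be told apart here. Camk1d, a calmodulin-dependent kinase, was at 304, 937 and 904 CPM and Lars2, the mitochondrial leucyl-tRNA synthetase, at 279.6, 610.5 and 754 CPM. Smaller log2 ratios were measured for Kitl, the ligand of the Kit receptor (54.7, 109 and 95 CPM), the collagen gene Col5a3 (33.8, 76.2 and 79 CPM) and the noncoding RNA Meg3 (165, 405 and 270.1 CPM).

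Some interferon-stimulated genes were higher after both injuries. Isg15, a ubiquitin-like protein, was at 16.1, 66.3 and 74.7 CPM in cluster 1, 14.9, 48.7 and 72.5 CPM in cluster 0 and 16.6, 25.4 and 68.5 CPM in cluster 2. Its log2 ratio in cluster 1 was 1.97 (95% counting interval 1.52 to 2.56) after physical and 2.14 (95% counting interval 1.68 to 2.75) after ischemic injury. Of the 8 members that reached 20 CPM in both the naïve and the injured library, 0 were past 2-fold after either injury (0.32% and 0.291% of all such genes were higher). Those past 2-fold were Isg15, Ifit3 and Oasl2 after both injuries and Irf7 and Irf9 after ischemic injury, each under 20 CPM in the naïve library, so they were tested only through the injured library and their number is no result about the list. Ifitm3, which blocks virus entry, was at 1047, 1178 and 1946 CPM, with a log2 ratio of 0.89 after ischemic injury in cluster 1, 0.89 in cluster 0 and 0.84 in cluster 2. Bst2, another antiviral protein, was at 42.8, 72.9 and 70.5 CPM.

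Most immediate early genes of cluster 1 were lower after physical injury, and few were past 2-fold after ischemic injury. After physical injury 9 of 13 tested were at least 2-fold lower (median log2 ratio -1.37), against 0.614% of all genes, and after ischemic injury 3 of 13 were (Jun, Jund and Dusp1; median -0.46), against 0.903%, while 2 of 13 had a positive ratio. Atf3, one of the 2, was at 38, 12.4 and 70.5 CPM in cluster 1, and was counted as lower after physical injury although only the naïve level of that pair reached 20 CPM. In cluster 0 the medians were -0.97 and 0.22, and in cluster 2 the median after ischemic injury was 0.14. After physical injury 6 of 13 were at least 2-fold lower in cluster 0 and 3 of 13 in cluster 2. Over all genes, 27 of 7321 and 24 of 7360 were lower in these clusters. Jun had log2 ratios of -1.71 and -1.42 in cluster 1, -1.24 and -0.46 in cluster 0 and -1.27 and -0.83 in cluster 2. Dusp1, a phosphatase that switches off MAP kinases, was at 313, 104 and 144 CPM, with -1.58 and -1.12 in cluster 1 and -1.35 and -0.08 in cluster 0. Hspa1b was lower after both injuries (-1.28 and -1.81), and Hspa1a after ischemic injury (-1.54).

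Other genes lower after both injuries were Txnip, which binds thioredoxin and limits glucose uptake (158, 78.7 and 77.9 CPM), the clock repressor Nr1d1 (295, 109 and 154 CPM), the sodium pump regulator Fxyd1 (145, 89.5 and 91.8 CPM), the potassium channel subunit Kcne4 (104, 66.3 and 63 CPM), Spp1 and Socs3. Txnip and Nr1d1 were also lower in clusters 0 and 2 after both injuries, with log2 ratios for Nr1d1 of -1.09 and -0.52 in cluster 0 and -1.12 and -0.74 in cluster 2.

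Some cytoskeletal and injury-associated genes were higher in cluster 1 after ischemic injury. Of the 15 members that reached 20 CPM in both the naïve and the ischemic library, 3 were at least 2-fold higher after ischemic injury (Vim, Lgals1 and S100a11), against 0.291% of the 6539 genes that did so, and clusters 0 and 2 each had 2 of 15, Vim and Lgals1. Lgals1 (galectin-1, a sugar-binding protein) was at 215, 250.1 and 677 CPM in cluster 1, with a log2 ratio after ischemic injury of 1.65 (95% counting interval 1.5 to 1.81), against 1.03 in cluster 0 and 1.10 in cluster 2. It was past 2-fold in 7 of 8 other clusters. Vim (vimentin, an intermediate filament) was at 101, 124 and 311 CPM, with 1.61 in cluster 1, 1.11 in cluster 0 and 1.00 in cluster 2, and S100a11, a calcium-binding protein, was at 252, 311 and 622 CPM with 1.30, 0.82 and 0.94. S100a6, S100a10 and Anxa1, also past 2-fold in cluster 1, reached 20 CPM only in the ischemic library and rested on 25, 23 and 19 UMIs there, so they had to differ and are not counted. Lgals1 was found in 16.3, 21.1 and 39.8% of thinned cells of cluster 1 (39.1, 45.9 and 61.2% unthinned) and in 0, 0.685 and 3.50% of thinned oligodendrocytes, so it was higher after ischemic injury in both.

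**Figure D5:**
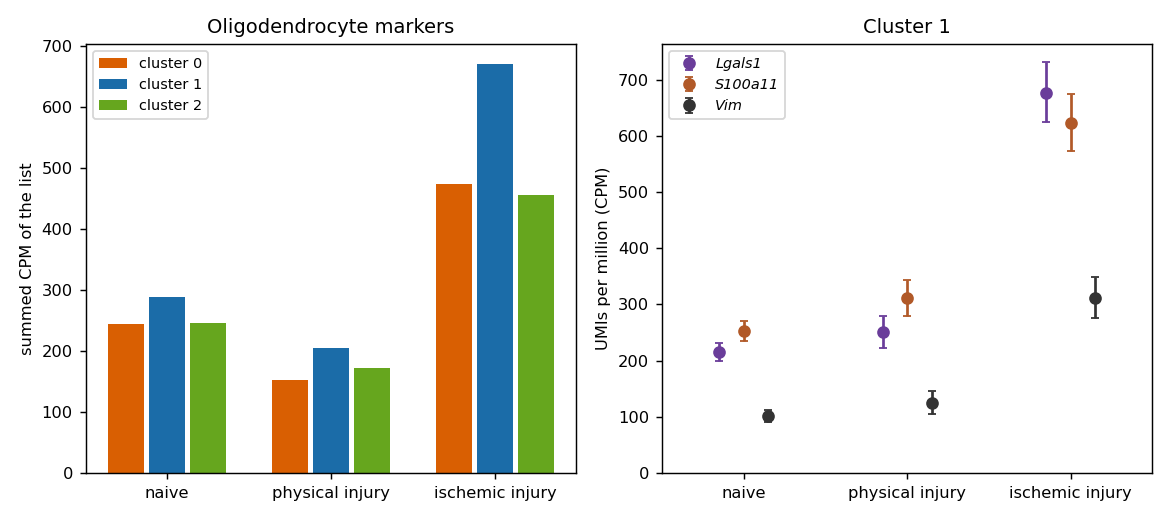
Left, summed level of 10 oligodendrocyte markers (CPM) in clusters 0, 1 and 2 of each library. Right, levels of Lgals1, S100a11 and Vim (CPM, with 95% exact Poisson intervals) in cluster 1 of each library. Both groups of genes were highest after ischemic injury, at 670 CPM for the oligodendrocyte markers in cluster 1 and 677 CPM for Lgals1.

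Transcripts of oligodendrocytes were also higher in cluster 1 of the ischemic library. The 10 markers summed to 289, 205 and 670 CPM in cluster 1, against 244, 152 and 474 in cluster 0 and 245, 172 and 456 in cluster 2, and none of them was at 0 in cluster 1. Mal, a myelin proteolipid, was at 34.7, 29.8 and 75.8 CPM in cluster 1, Mbp (myelin basic protein) at 24.5, 17.4 and 40.6 CPM, Mag (myelin-associated glycoprotein) at 13.2, 7.45 and 40.6 CPM, and Mog, a protein of the outer myelin surface, at 9.57, 7.45 and 21.4 CPM. Each was highest in the ischemic library. Of the 4 markers that reached 20 CPM in both the naïve and the ischemic library, 2 were at least 2-fold higher after ischemic injury, against 0.291% of all genes that did so. The other 4 tested, Mag and Mog among them, reached it only in the ischemic library and had to differ. Cells with at least 2 UMIs of the defining genes of another cell type made up 22.3%, 26.1% and 45.3% of cluster 1, 31.4%, 35.4% and 54.1% of cluster 0 and 43.7%, 47.9% and 63.7% of cluster 2. These shares were read at unequal depth, with a median of 3054.5, 3843.5 and 2984 UMIs per cell in cluster 1, 4122.5, 4944 and 4547 in cluster 0 and 4376, 5145 and 4755 in cluster 2, so no order of the clusters is read from them. In cluster 1 of that library 106 of 140 such cells were marked by oligodendrocyte genes. Whether such cells hold RNA from elsewhere or are doublets was not tested.

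Markers of precursors also summed to less than the pericyte markers in cluster 1, and they moved with the same library. The 10 OPC markers summed to 48.4, 48.9 and 138 CPM, led by Olig1 at 12.3, 11.6 and 36.3 CPM. The 8 radial glial precursor markers summed to 403, 397 and 660 CPM, of which Dbi, a widely expressed acyl-CoA binding protein, gave 243, 219 and 365 CPM. Fabp7, a fatty acid carrier of radial glia, was at 15, 20.7 and 74.7 CPM and was past 2-fold in 7 of 8 other clusters after ischemic injury. Sox2, a factor of neural stem cells, was found with 4, 2 and 5 UMIs in all of cluster 1. Of the microglia markers, the complement gene C1qa was at 0, 2.48 and 7.47 CPM and Tmem119 at 0. The 8 neuron markers summed to 167, 407 and 272 CPM, nearly all of it Meg3, with Slc17a7, Gad1 and Gad2 at 0. The part of these transcripts in the changes of cluster 1 was not tested.

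Between the injuries, 112 of 7392 genes (1.52%) were at least 2-fold higher in cluster 1 after ischemic than after physical injury and 138 (1.87%) were lower. Of the 6441 that reached 20 CPM in both, 27 (0.419%) were higher and 37 (0.574%) lower. Atf3 was at 38, 12.4 and 70.5 CPM, a log2 ratio of 2.41 (95% counting interval 1.68 to 3.42). Nkain2, a partner of the sodium pump in neural cells, was at 15.5, 9.11 and 50.2 CPM, Stmn1, a microtubule destabiliser, at 13.2, 14.9 and 69.4 CPM and the protocadherin gene Pcdh9 at 57.7, 27.3 and 121 CPM. After physical injury Atf3, Nkain2 and Stmn1 were under 20 CPM, so they were tested only through the ischemic library, where they are high. Lower after ischemic injury were Pde4d, which breaks down cyclic AMP (499, 993 and 395 CPM), Nr3c2, the mineralocorticoid receptor (60.4, 72.9 and 27.8 CPM), Dkk2, a Wnt antagonist (61, 67.9 and 27.8 CPM), and Pde4c (75.1, 72.9 and 29.9 CPM). Gene span moved with this contrast too, with median log2 ratios of 0.25 in the shortest class and -0.33 in the longest, against 0.20 and -0.29 in cluster 0 and 0.24 and -0.18 in cluster 2. Relative to the naïve library, the same classes of cluster 1 were at -0.15 and 0.26 after physical injury and at 0.08 and -0.08 after ischemic injury, so the larger departure from naïve was in the physical injury library.

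The genes named next were picked for the gap between their ischemic ratio in cluster 1 and those in clusters 0 and 2, so the gap is a description, and it could not be tested with 1 library per group. Stmn1 had a log2 ratio to naïve of 2.31 (95% counting interval 1.82 to 2.99) in cluster 1 against 1.27 in cluster 0 and 0.95 in cluster 2, and Nkain2 1.63 against -0.15 and 0.09. Both were under 20 CPM in the naïve library and were tested only through the ischemic library, and with cells of at least 1500 UMIs the ratio of Nkain2 was 0.76. Dnajc4, a J-domain protein, was at 40.4, 42.2 and 69.4 CPM, with 0.77 against -0.05 and -0.18. In the other direction, the orphan nuclear receptor Nr4a1 was at 54.1, 40.6 and 41.6 CPM, with -0.37 against 0.90 and 0.63, and 0.03 in cluster 1 with thinned cells. Dact1, an inhibitor of Wnt signalling, was at 126, 96.1 and 68.3 CPM, with -0.87 against 0.23 and 0.07, and Usp8, a deubiquitinase of endosomes, was at 67.9, 71.2 and 38.4 CPM, with -0.80 against 0.04 and 0.11.

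Genes of transport, contraction and matrix were mostly within 2-fold. Over all genes at most 1.87% were past 2-fold in any 1 direction and comparison, so a count of 0 in a short list shows nothing about that list. Of 14 solute carriers and pumps tested, 0 were past 2-fold in any comparison. After ischemic injury 13 of them had a log2 ratio below 0 in cluster 1 (median -0.28, against -0.03 over all genes), as had 12 of 14 in cluster 0 (median -0.12) and 11 of 14 in cluster 2 (median -0.13). Of 17 ion channels and regulators of contraction, 0 were past 2-fold after either injury compared with naïve, and Cacnb2 was lower after ischemic than after physical injury. Of 18 basement membrane and matrix genes and of 11 and 12 genes of PDGF, Notch and angiopoietin signalling, 0 were past 2-fold in any comparison. Among partners of vitronectin, the integrin subunits Itgav, Itgb1 and Itgb5 were at 118, 103 and 117 CPM, 1040.3, 1012 and 1237 CPM and 283, 293 and 257 CPM, and Itgb3 was at 0.

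For the remaining lists, the members past 2-fold in cluster 1 are given as a description. Over all genes tested in cluster 1, 1.01% were at least 2-fold higher and 0.903% lower after ischemic injury. After physical injury these shares were 0.573% and 0.614%. Beside such shares, a call in a short list, or the lack of calls, says little about that list. After ischemic injury Eno1, a glycolytic enzyme, was the only one of 12 hypoxia and glycolysis genes past 2-fold, and it was lower. Mt2, a metallothionein, was higher among 14 genes of metal and oxidative stress, Ptgds among 5 genes of NF-kB and cytokines, Ccnd1 (cyclin D1) among 3 cell cycle genes, and Fabp5 was higher and Fdft1 lower among 15 lipid genes. After physical injury C1s1 was lower among 3 complement genes, Socs3 among 11 acute phase genes and Klf4 among 16 mural transcription factors. Mt2, Ccnd1, Fdft1, C1s1 and Klf4 reached 20 CPM in only the higher of the libraries compared. None of 4 genes of the insulin-like growth factor axis was past 2-fold in any comparison.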

How the data were processed

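Single-cell RNA-seq was run on sorted tdT+ cortical cells with a 10x 3' v3 kit. Per the labels, Cell Ranger 7.0.0 aligned the reads to mm10 and counted UMIs; the study's methods name a range of versions ending at 7.0.0, and the version used for each library, the intron setting and annotation release are not given in the sources used here. The authors kept cells with at least 200 genes and at most 12% mitochondrial transcripts, and removed Gm42418 and AY036118. In each library they also removed cells whose gene or RNA counts lay over 2 standard deviations from the mean, and genes found in very few cells. They clustered the cells after integration of the libraries. The deposited tables hold raw UMI counts per gene and cell, and per cell the library, the cluster number and the percent of mitochondrial and of ribosomal UMIs computed by the authors. Cells were taken as deposited, with no doublet caller; an alternative left out cells with at least 2 UMIs of the defining genes of another cell type. The number of columns of unmapped samples was 0. Medians in cluster 1 were 2.79%, 3.31% and 2.60% mitochondrial UMIs.

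UMIs were summed per cluster and library and divided by the total (CPM). Ratios are log2 of (CPM + 1), which understates the change of low genes. A gene was tested when the higher sum reached 20 CPM and counted at 2-fold; between clusters both had to hold in each of the 3 libraries. Levels carry exact Poisson and shares exact Clopper-Pearson intervals (95%), for counting error only. For shares, each cell was thinned to 1000 UMIs and shallower cells were left out. Named genes were the 6 given markers, the 12 each way with the largest smallest ratio over the libraries (against cluster 0, cluster 2, and after both injuries), the 8 each way between injuries and the 6 each way whose ischemic change differed most from the nearer of clusters 0 and 2, with at least 50 CPM and without mitochondrial genes and unnamed gene models, plus members of 34 gene lists and 3 lists added after the values were seen. The members and lists were chosen with earlier results of these data known. Gene positions came from GENCODE M21, which matched 22316 of 22833 genes (97.7%), and promoters from RefSeq. The counting script was tested on simulated data. TMM factors came from edgeR 4.0.16 in R 4.3.3, intervals from scipy 1.17.1, sums from numpy 2.4.6 and pandas 2.3.3 under Python 3.11.15, and figures from matplotlib 3.10.9. Results for some genes that the rule names are not reported here, although sums and counts over lists include them.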

Additional observations from a re-analysis of the deposited data

How the results depend on the processing

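Mixed cells are those with at least 2 UMIs of the defining genes of another cell type. No alternative turned the direction of a named log2 ratio that was past 2-fold. Of 130 such ratios, 116 stayed past 2-fold without mixed cells, 119 with thinned cells and 123 to 128 under the other settings. Smaller ratios did turn, as given for the markers; that of Cavin3 to cluster 0, for example, was -0.56 after physical injury with thinned cells. Genes lower than in cluster 0 numbered 31, 27 to 44 in the other settings and 55 with no minimum. Genes higher than in cluster 0 (1) numbered 0 with TMM factors, a pseudocount of 5 CPM, a minimum of 50 CPM, at most 5% mitochondrial UMIs, at least 1500 UMIs or without mixed cells, 3 with no minimum, 4 without the naïve library and 2 without the physical injury library. Genes higher than in cluster 2 (0) numbered 2 with no minimum, with thinned cells or with the mean over cells, and 1 without the ischemic library. Genes lower than in cluster 2 (21) numbered 12 with a minimum of 50 CPM, 57 with none, 44 with thinned cells, 39, 68 and 36 without the naïve, physical injury and ischemic injury library (fewer libraries had to pass), and 4 without genes over 100 kb, an alternative chosen after seeing the data.

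Genes higher and lower after physical injury (42 and 45) numbered 26 and 26 with a pseudocount of 5 CPM, 20 and 21 with a minimum of 50 CPM, 546 and 711 with none, and 285 and 303 with thinned cells, while higher genes numbered 68 without mixed cells and 69 with the mean over cells. After ischemic injury (74 and 66) they numbered 23 and 13 with a minimum of 50 CPM, 1246 and 863 with none, 275 and 336 with thinned cells and 184 and 103 with the mean over cells. Lower genes numbered 22 with a pseudocount of 5 CPM and 152 without mixed cells, and higher genes 39 without genes over 10 times higher in a cluster from 3 to 9. Between the injuries (112 and 138) they numbered 32 and 31 with a minimum of 50 CPM, 1795 and 1061 with none, 196 and 301 without mixed cells, 489 and 690 with thinned cells and 236 and 218 with the mean over cells. Lower genes numbered 63 with a pseudocount of 5 CPM, and higher genes 72 without genes over 10 times higher in a cluster from 3 to 9. Without genes that moved 2-fold the same way in at least 6 other clusters, chosen after seeing the data, 38 and 45, 61 and 66, and 98 and 138 were past 2-fold in these comparisons.

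The shares of cluster 1 in clusters 0 to 2 were 38.1%, 33.9% and 33.9% without mixed cells, and 22.9% in the ischemic library with cells of at least 1500 UMIs; over all sorted cells they were 25.2%, 12.4% and 8.62%. The median share of cells with a UMI of a given marker was 9.65% with cells thinned to 1000 UMIs, 16.9% at 2000 UMIs and 24.2% unthinned. The cause of these shifts was not tested. Between conditions no paired analysis was possible, because each condition has 1 library. Clusters were paired by library and compared within each, and no test was run on these pairs.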

Other observations

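The given markers were also read in the Tbx18 line, another tdT reporter line of the series, clustered on its own with other cluster numbers. Its cluster 2, with 226 naïve cells, 433 after physical and 86 after ischemic injury, held the highest Nodal and Nts levels among the clusters of at least 20 cells in each library. There Vtn was at 12420, 7714 and 8131 CPM, Nodal at 139, 52.5 and 48.2 CPM, Nts at 151, 57.9 and 85.1 CPM and Slc6a13 at 79.3, 29.0 and 28.4 CPM. Slc6a13 was higher in cluster 4 of the naïve library (106 CPM, 157 cells) and in cluster 5 after physical injury (2014 CPM, 116 cells). Saa1 was at 53.1, 11.5 and 14.2 CPM. All 5 genes were lower there in both injured libraries than in the naïve library. The lines were sorted and clustered separately, so these levels were not compared with those of the NG2 line.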
